A study of Mus musculus with 6 samples.

Results

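The integrated stress response regulators examined here were 10 genes, Atf4, Atf5, Atf3, Ddit3, Trib3, Chac1, Sesn2, Ddit4, Nupr1 and Eif4ebp1, which were taken as a list of names. The list was drawn up with earlier results of these data known, so that counts over it are a description and not independent evidence. They are 10 of the 46078 genes in the count tables. Growth plate cartilage of the distal femur and proximal tibia was collected at E18.5, an embryonic stage shortly before birth. It came from control animals (Idh1 LSL/+) and mutant animals (Col2a1-Cre; Idh1 LSL/+) and was measured by bulk RNA sequencing in 3 libraries per group. The sample titles and the methods do not say how many animals went into each library. Every animal carried an Idh1 allele with the R132Q mutation behind a lox-stop-lox cassette on 1 of its chromosomes. Only the mutants carried Col2a1-Cre, which removes the cassette in cells of the cartilage lineage that use the Col2a1 promoter. Cre itself was thus present in the mutants alone, and an effect of Cre and one of mutant Idh1 cannot be told apart. The methods describe the controls as littermates, but no litter is given for any library, and the p-values measure only the spread between these libraries.

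The integrated stress response begins with kinases that phosphorylate the translation initiation factor eIF2 when amino acids are scarce, unfolded protein accumulates in the endoplasmic reticulum, or other stresses act. General translation then slows, while the messenger RNA of Atf4, a bZIP (basic leucine zipper) transcription factor, is translated more. Atf4 protein activates genes for amino acid uptake and synthesis as well as further regulators, some of which feed back on the response, and in the skeleton it is known for its roles in chondrocytes and osteoblasts. Because Atf4 and Atf5 are controlled largely in translation, the RNA level measured here does not give the amount of either protein.

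The counted reads lay between 27677245 and 30415773 per control library and between 23445687 and 29136753 per mutant library. Levels are given in CPM (counts per 1000000 reads counted on the tested genes, scaled with edgeR's TMM factors). The smallest level that could be shown was taken as 3 counts. These corresponded to 0.0986 to 0.128 per 1000000 of all counted reads, without TMM scaling. Idh1, the targeted gene, read 37.26, 39.15 and 65.36 CPM for controls 1, 2 and 3 and 47.59, 47.73 and 56.34 CPM for mutants 1, 2 and 3, so that its total level overlapped between the groups. Cartilage markers were present in every library (Col2a1 at 1923 to 5245 CPM), but so were the muscle gene Myh8 at 4110 to 6697 CPM and the osteoblast gene Col1a1 at 33200 to 47780 CPM, so that the libraries held RNA of several tissues. In such bulk samples, fewer cells of a type and less RNA per cell cannot be told apart. Mutant 3 stood apart from the other libraries with 26356 counts of Xist (0 to 13 elsewhere) and 0 counts of 4 Y-linked genes (3871 to 5449 elsewhere), and values without it are given where results rest on it. Tendon markers were summed to 3208 to 3441 CPM in the controls and 2110 to 2472 CPM in the mutants (5 of 6 lower, with 1, Tnmd, past the threshold given below in edgeR and in limma-voom, 5 past it in DESeq2 and 5 at an unadjusted p under 0.05 in edgeR), and erythroid markers to 551.0 to 1591 CPM and 290.8 to 430.5 CPM (7 of 7 lower, 0 past the threshold in edgeR, 6 at an unadjusted p under 0.05, 2 past it in DESeq2 and 0 in limma-voom). Epidermal markers were summed to 11.72 to 21.11 CPM and 10.06 to 10.98 CPM (5 of 5 tested lower). Krt5 passed the threshold in edgeR and DESeq2, and 0 passed in limma-voom. Krt5 was at 2.948 to 7.896 CPM in the controls and 0 to 0.379 CPM in the mutants. Krt1 was at 0.3197 to 1.951 and 0.2031 to 0.7236 CPM, so that its groups overlapped (unadjusted p = 0.0865 in edgeR). Krt10, Dsp and Trp63 differed less, with log2 fold changes of -0.04, -0.04 and -0.16. All 8 osteoblast markers had higher means in the mutants, with a median log2 fold change of 0.57. Their sums overlapped (34080 to 48150 CPM and 39550 to 41630 CPM) but were mostly Col1a1. Of these markers 0 passed the threshold in any of the 3 tests, and 2 had an unadjusted p under 0.05 in edgeR. The 2 were Ibsp (119.8 to 974 and 951.7 to 1475 CPM) and Dmp1 (6.76 to 82.86 and 84.47 to 198.3 CPM). The summed cartilage, muscle, macrophage and endothelial markers overlapped between the groups, and 0 of them passed the threshold in any test. At an unadjusted p under 0.05 in edgeR, 2 macrophage markers (Csf1r and Lyz2) and 2 endothelial ones (Kdr and Emcn) were higher in the mutants. For cartilage and muscle there were 0. No marker of any list was at 0 in every library. The part of these tissue differences in the results below was not tested.

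The upstream sequences of 4 regulators are shown because they hold, or in the case of Trib3 lack, the core of the C/EBP-ATF response element (CARE), the site to which Atf4 binds together with C/EBP factors. The core was searched as TTGCNTCA on both strands in the 250 bases before each RefSeq transcription start (build GRCm38.p6), and capitals mark a match. Trib3 and Chac1, the regulators with the largest fold changes, are shown over most of that window (Trib3 on the reverse strand at chr2:152344061-152344310, Chac1 on the forward strand at chr2:119350992-119351228), and Atf3 (reverse strand, chr1:191183425-191183454) and Nupr1 (reverse strand, chr7:126625562-126625591) by 30 bases around the match.
Trib3: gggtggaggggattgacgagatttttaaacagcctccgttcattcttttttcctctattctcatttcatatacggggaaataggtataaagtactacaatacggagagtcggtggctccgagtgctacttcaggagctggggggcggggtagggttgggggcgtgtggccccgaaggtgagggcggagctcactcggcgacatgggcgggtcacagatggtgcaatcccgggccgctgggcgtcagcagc
Chac1: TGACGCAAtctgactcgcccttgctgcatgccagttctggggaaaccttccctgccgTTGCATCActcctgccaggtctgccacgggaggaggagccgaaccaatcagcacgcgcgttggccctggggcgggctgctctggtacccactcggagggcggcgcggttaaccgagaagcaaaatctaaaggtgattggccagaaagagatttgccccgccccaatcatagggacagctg
Atf3: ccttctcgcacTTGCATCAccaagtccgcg
Nupr1: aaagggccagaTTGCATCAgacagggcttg
Chac1 held 2 matches, which began 250 and 193 bases before the start, the first of them on the other strand, where it reads TGACGCAA in the direction of the gene. Atf3 and Nupr1 held 1 match each, both beginning 110 bases before the start. The stretch shown for Nupr1 lies within exons of other annotated transcripts of the gene. Of the 9 regulators with a window in the RefSeq table, 3 held the core, against 3.61% of 27025 genes and 3.12% of 32851 windows. The CRE core, ACGTCA, to which Atf and Creb factors bind, was found in 1 of the 9 (Atf3, beginning 8 bases before the start) and in 7.29% of genes. The endoplasmic reticulum stress element (ERSE), bound by Atf6, was found in 0 of the 9 and in 0.13% of genes. A match describes the letters only, and its absence from this window says nothing about sites elsewhere.

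The leader, the stretch of messenger RNA before the coding start, is where upstream reading frames control the translation of Atf4. For each gene, 1 annotated transcript (GENCODE M21) was used, and among transcripts of equal annotation rank the one with the longest leader was taken. In the transcript used, the Atf4 leader was 594 bases long and held 3 upstream ATG codons, which opened frames of 36, 3 and 59 codons. The 59-codon frame began 97 bases before the coding start and ran past it in another frame. Atf5 had 2 upstream ATG codons, with the same arrangement of a short and an overlapping frame but no counterpart of the 36-codon frame. Its leader of 373 bases held a 3-codon frame and a 58-codon frame, which began 121 bases before the coding start and overlapped it. These 2 genes were the only regulators of the 10 with an overlapping frame, which 18% of 20779 genes had. Ddit3 had 2 upstream ATG codons, 131 and 122 bases before the coding start. They lay in the same reading frame and ended at the same stop, after 34 and 31 codons. Atf3, Sesn2 and Nupr1 had 1 upstream frame each (25, 22 and 24 codons). No upstream ATG was found for Trib3, Chac1, Ddit4 or Eif4ebp1, so that 6 of the 10 had one, against 54.8% of all genes.

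Mutants and controls were compared with edgeR's quasi-likelihood test over the 16813 genes with enough counts, with Benjamini-Hochberg adjustment over all of them and a threshold of 0.05 on the adjusted p. All 10 regulators were tested, and 0 passed, against 0.19% of all tested genes (32 genes). By direction, 0.0535% of all tested genes passed as higher in the mutants and 0.137% as lower. Trib3 was the nearest to the threshold, and Atf5 followed. At an unadjusted p under 0.05 there were 5 regulators (Trib3, Atf5, Chac1, Ddit3 and Sesn2), all higher in the mutants, against 3.71% of all genes in that direction and 8.64% in either. By DESeq2, 2 regulators passed its adjusted threshold, Trib3 and Atf5 (1.23% of all genes), and by limma-voom 0 passed (0.113% of all genes). The mean was higher in the mutants for 8 of the 10, against 49.3% of all genes, and their median log2 fold change (mutant over control) was 0.27, against -0.0026 for all genes. The 2 exceptions were Atf4 itself and Ddit4. For 5 regulators (Atf5, Ddit3, Trib3, Sesn2 and Eif4ebp1) every mutant library lay above every control library, as for 6.85% of all genes in that direction and 14.4% in either, and for 0 every mutant lay below. Without mutant 3, 8 regulators were again higher, 4 had an unadjusted p under 0.05 in edgeR and 0 passed the adjusted threshold.

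**Figure D1:**
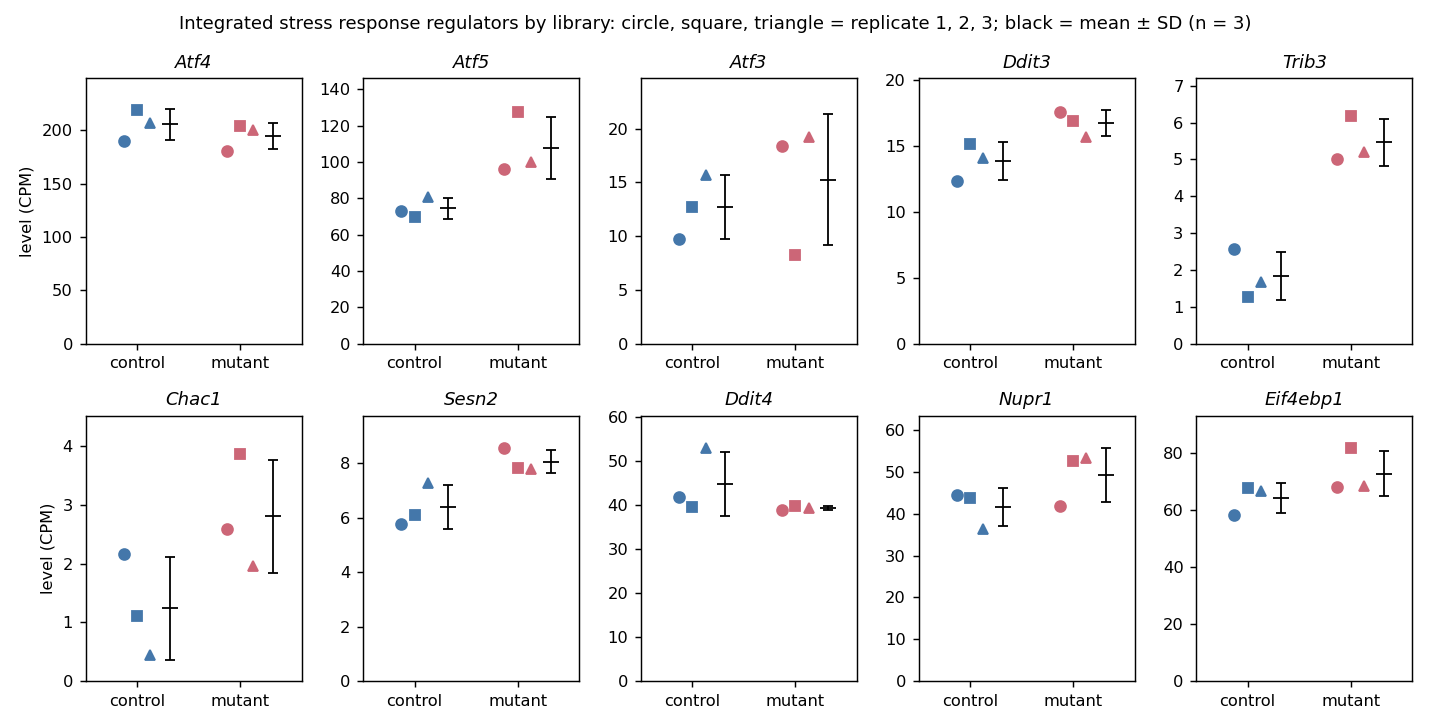
Level of each regulator in CPM (vertical axes, starting at 0) in the 3 control libraries (blue) and the 3 mutant libraries (red), with the mean ± SD of each group in black. The Trib3 libraries form separate groups at 1.27 to 2.56 and 5.001 to 6.18 CPM, whereas the Atf4 libraries overlap at 190.4 to 219.4 and 180.2 to 203.7 CPM.

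Atf4 (ENSMUSG00000042406, chromosome 15 from 80255184 to 80257540 on the forward strand of GRCm38) was by far the most abundant of the regulators. Controls 1, 2 and 3 read 190.4, 219.4 and 206.6 CPM and mutants 1, 2 and 3 read 180.2, 203.7 and 200 CPM, from 4251 to 6724 counts per library. The groups overlapped, and mutant 1 was the lowest of the 6 libraries. The control mean was 205.5 ± 14.54 CPM and the mutant mean 194.6 ± 12.65 CPM (SD, n = 3 each). On the log2 scale this was a fold change of -0.08 (standard error 0.0881, 95% interval -0.28 to 0.12, adjusted p = 0.876 in edgeR with Benjamini-Hochberg adjustment), which is less than the spread between the libraries (exact two-sided permutation p = 0.4, where 3 against 3 cannot go below 0.1). By mean CPM over the 6 libraries, without regard to length, Atf4 ranked 700th of the tested genes. Per kilobase of exon, which allows levels to be set between genes, Atf4 was at 119.2 CPM per kb in the controls and 112.9 in the mutants. On the same scale Eif4ebp1 was at 65.49 and 74.21, Atf5 at 37.42 and 54.09, Ddit4 at 26.58 and 23.27 and Nupr1 at 16.57 and 19.62 CPM per kb. The other regulators lay under 10 CPM per kb, down to 0.755 and 1.71 for Chac1 and 0.861 and 2.57 for Trib3.

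None of the genes that act upstream of Atf4 passed the threshold. Of 17 tested genes for the eIF2 kinases and their cofactors or inhibitors (Gcn1l1, Impact and Dnajc3), the subunits of eIF2 and of its exchange factor eIF2B, and the regulatory subunits of the phosphatase that reverses the phosphorylation, 12 had a higher mean in the mutants, 0 passed the threshold in edgeR, DESeq2 or limma-voom, and 0 had an unadjusted p under 0.05 in edgeR. Their median log2 fold change was 0.05. Eif2ak3, which encodes the kinase PERK of the endoplasmic reticulum, was at 56.22 to 59.56 CPM in the controls and 58.36 to 67.44 CPM in the mutants (log2 fold change 0.15, standard error 0.0829). Ppp1r15b, which encodes the constitutive regulatory subunit of the phosphatase, was at 98.99 to 117.6 and 92.71 to 103.0 CPM (log2 fold change -0.18, standard error 0.0885). Ppp1r15a (GADD34), the inducible subunit and itself a target of the response, was at 14.67 to 22.04 and 16.45 to 18.27 CPM (log2 fold change -0.10, standard error 0.142). Eif2s3x, the X-linked gene of the eIF2 gamma subunit, was at 39.35 CPM in mutant 3 and at 23.40 to 26.07 CPM in the other libraries, while its Y-linked counterpart Eif2s3y was at 0 CPM in mutant 3 and at 36.13 to 51.94 CPM elsewhere. Among 19 dimer partners and modifiers of Atf4, 8 had a higher mean, 0 passed in any of the 3 tests, 1 on each side had an unadjusted p under 0.05 in edgeR, and the median was -0.02. The lower one was Runx2, a transcription factor of chondrocyte maturation and bone formation (41.01 to 45.57 and 24.47 to 39.89 CPM, log2 fold change -0.36, standard error 0.158), and the higher one was Ddit3.

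Atf5, Atf3 and Ddit3 encode further bZIP factors of the response. Atf5 (chromosome 7, 44812257 to 44816658, reverse strand), which Atf4 activates and which serves in the response to mitochondrial stress, read 72.78, 69.92 and 80.90 CPM across controls 1 to 3 and 95.99, 127.4 and 99.79 CPM across mutants 1 to 3. Every mutant lay above every control, and mutant 2 was the highest. The means were 74.53 ± 5.70 and 107.7 ± 17.16 CPM (SD, n = 3 each), a 1.446-fold difference. In log2 units it was 0.53 (standard error 0.115, 95% interval 0.27 to 0.79, adjusted p = 0.149 in edgeR with Benjamini-Hochberg adjustment), and DESeq2 gave an adjusted p of 0.00535. Without mutant 2 the log2 fold change was 0.40, the lowest with any 1 library left out, and without mutant 3 it was 0.58. The exons of Atf5 share 82 bases (4.11%) with Nup62 and Il4i1 on the opposite strand, and the counting did not use strand.

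Ddit3 (chromosome 10, 127290774 to 127296288, forward strand) encodes CHOP, which is associated with cell death when stress of the endoplasmic reticulum persists. Its control libraries read 12.32, 15.17 and 14.09 CPM, and its mutant libraries 17.59, 16.86 and 15.64 CPM. The groups did not overlap, although mutant 3 lay close to control 2. The fold change was a log2 value of 0.27 (standard error 0.112, 95% interval 0.02 to 0.52, unadjusted p = 0.0391 and adjusted p = 0.543 in edgeR). Its exons share 68 bases (3.97%) with Mars on the opposite strand, a gene of the response that had a log2 fold change of 0.22, and 105 bases (6.13%) with another annotated gene of the same name. Atf3 (chromosome 1, 191170296 to 191218039, reverse strand), an early stress gene that is mainly a repressor, read 9.73, 12.69 and 15.72 CPM in the control libraries against 18.39, 8.21 and 19.19 CPM for the mutants. Mutant 2 was the lowest of all 6 libraries and mutants 1 and 3 the highest. The difference of 0.27 on the log2 scale (standard error 0.287, 95% interval -0.38 to 0.91, adjusted p = 0.871 in edgeR) was within that spread. The SD of its log2 CPM about the group means was 0.54, above that of 99.2% of the 500 genes closest to it in level. Leaving out 1 library at a time moved its log2 fold change between 0.06 (without mutant 3) and 0.57 (without mutant 2).

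Trib3 (ENSMUSG00000032715, chromosome 2 from 152337422 to 152344032 on the reverse strand) encodes a pseudokinase that binds Atf4 and Akt and restrains Atf4 activity, and it had the largest fold change of the 10. Controls 1 to 3 held 72, 39 and 46 counts of it, and mutants 1 to 3 held 118, 152 and 151. These counts correspond to 2.56, 1.27 and 1.66 CPM and to 5.001, 6.18 and 5.20 CPM. The lowest mutant was well above the highest control, and the 95% counting intervals of these libraries, 97.7 to 141 counts in mutant 1 and 56.3 to 90.7 counts in control 1 (exact Poisson, counting error only), did not meet. The means were 1.83 ± 0.659 and 5.46 ± 0.628 CPM (SD, n = 3 each), a 2.985-fold difference. In log2 units it was 1.58 (standard error 0.260, 95% interval 0.996 to 2.16), and it ranked 39th of all tested genes by p. The adjusted p was 0.05997 in edgeR and 0.05358 in limma-voom, just outside the threshold, and 7.34e-06 in DESeq2 (each with Benjamini-Hochberg adjustment). Without control 1, the highest control, the edgeR value was 1.89 with an adjusted p of 0.0446. Without each of the other libraries it lay between 1.37 and 1.64 and did not pass, and without mutant 3 it was 1.61 (adjusted p = 0.178 in edgeR). The exact two-sided permutation p was 0.1, the smallest that 3 against 3 allow, as it was for the other 4 regulators whose groups did not overlap.

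**Figure D2:**
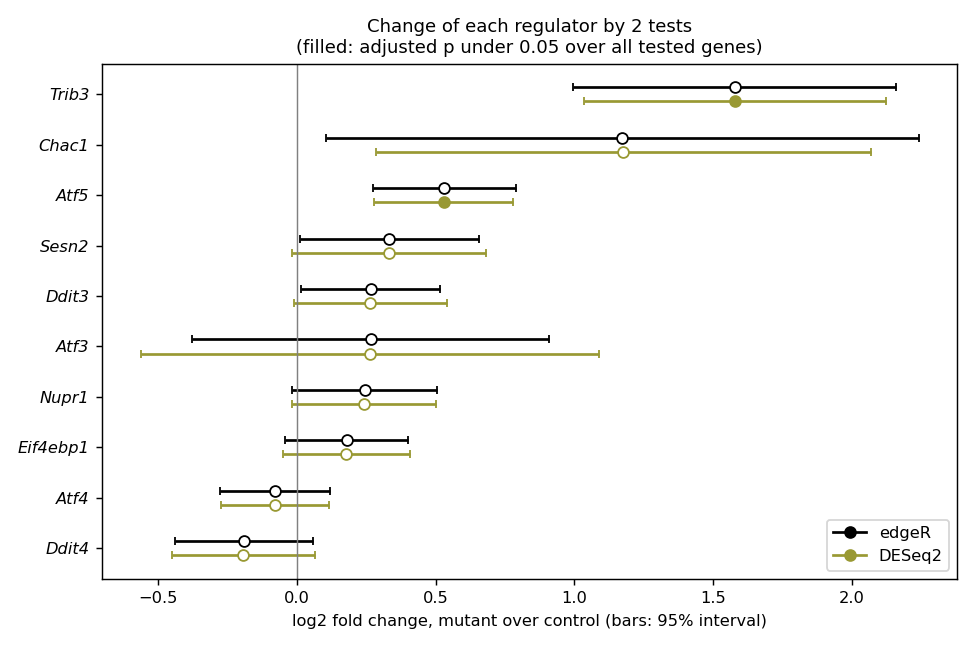
Log2 fold change of each regulator, mutant over control (horizontal axis, bars 95% intervals), from edgeR (black) and DESeq2 (olive), with filled points where the adjusted p was under 0.05. The 2 tests place each point alike, and the filled points are Trib3 and Atf5 in DESeq2.

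Chac1 (chromosome 2, 119351229 to 119354381, forward strand) encodes an enzyme that degrades glutathione. Controls 1 to 3 held 61, 34 and 12 counts, and mutants 1 to 3 held 61, 95 and 57, or 2.17, 1.11 and 0.434 CPM and 2.58, 3.86 and 1.96 CPM. Control 1 lay above mutant 3, so that the groups overlapped, and the controls spanned a 5-fold range. Its fold change was 1.17 on the log2 scale (standard error 0.477, 95% interval 0.11 to 2.24, unadjusted p = 0.0345 and adjusted p = 0.526 in edgeR). It depended on the libraries used, being 1.84 without control 1, 0.78 without control 3 and 0.88 without mutant 2. The 12 counts of control 3 have a 95% counting interval of 6.2 to 21 (exact Poisson). Its SD about the group means, 0.83 on the log2 scale, exceeded that of 96.4% of the 500 genes closest in level. Chac1 is the gene with 2 CARE cores in the upstream sequence shown above, and the window of Trib3 held none.

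**Figure D3:**
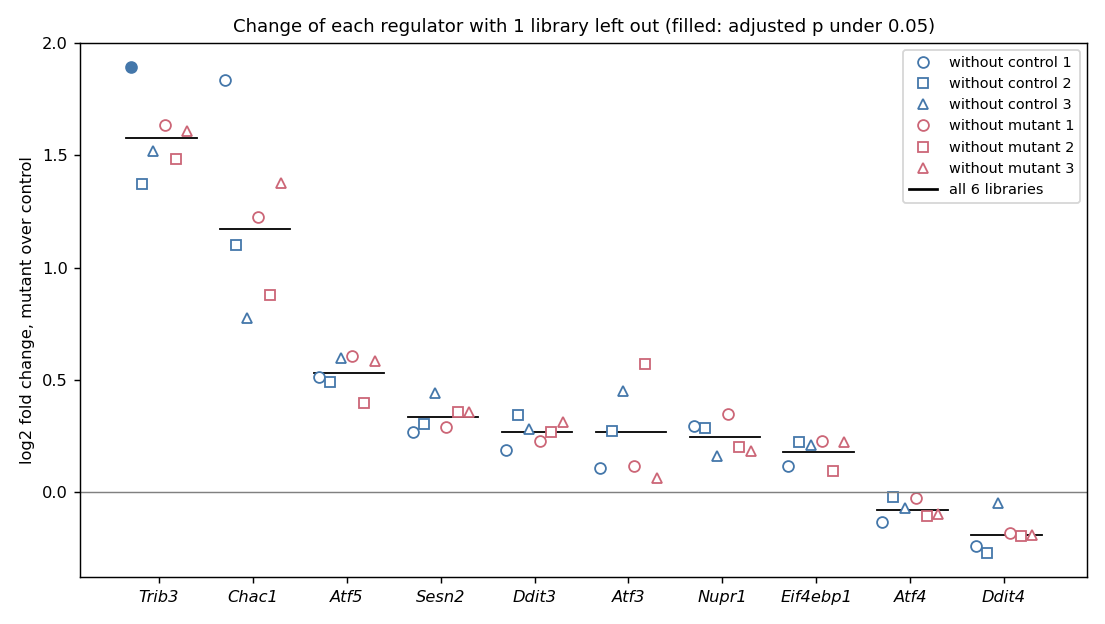
Log2 fold change of each regulator (vertical axis, edgeR) with all 6 libraries (black lines) and with 1 library left out (open points, filled where the adjusted p was under 0.05). Trib3 without control 1 is the only filled point, and the points of Chac1 lie between 0.78 and 1.84, those of Trib3 between 1.37 and 1.89 and those of Atf3 between 0.06 and 0.57.

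Sesn2, Ddit4 and Eif4ebp1 link the response to mTORC1, the kinase complex that promotes translation and growth. Sesn2 (chromosome 4, 132492032 to 132510501, reverse strand), a leucine sensor that restrains mTORC1, read 5.79, 6.10 and 7.30 CPM in the control libraries and 8.56, 7.84 and 7.79 CPM in those of the mutants. The groups did not overlap, and the log2 fold change was 0.33 (standard error 0.144, 95% interval 0.01 to 0.66, unadjusted p = 0.0432 and adjusted p = 0.557 in edgeR). Eif4ebp1 (chromosome 8, 27260327 to 27275656, forward strand) encodes a repressor of cap-dependent translation that mTORC1 inactivates. The control libraries read 58.36, 67.73 and 66.66 CPM and the mutant libraries 68.02, 81.94 and 68.44 CPM. The groups were separated only by the narrow gap between mutant 1 and control 2. The difference was 0.18 in log2 units (standard error 0.0992, 95% interval -0.04 to 0.40, adjusted p = 0.682 in edgeR), and with library totals in place of TMM scaling the exact permutation p was 0.2. Without mutant 2 the log2 value was 0.09. Ddit4 (REDD1, chromosome 10, 59949675 to 59951770, reverse strand), an inhibitor of mTORC1 that hypoxia and glucocorticoids also induce, read 41.88, 39.48 and 53 CPM for controls 1 to 3 and 38.74, 39.73 and 39.18 CPM for mutants 1 to 3. The mutants spanned only a 1.03-fold range, whereas control 3 was high. Its log2 fold change of -0.19 (standard error 0.112, 95% interval -0.44 to 0.06, adjusted p = 0.699 in edgeR) was -0.05 without control 3. Of 18 other genes of the mTORC1 pathway, 7 had a higher mean in the mutants, 0 passed in any of the 3 tests, 0 had an unadjusted p under 0.05 in edgeR, and the median was -0.01. The lowest p belonged to Mlst8, for a subunit of the complex (17.63 to 19.68 and 20.68 to 21.43 CPM, log2 fold change 0.20, standard error 0.0915), and Deptor, for an inhibitor of it (72.27 to 79.27 and 58.34 to 75.48 CPM, log2 fold change -0.17, standard error 0.101).

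Nupr1 (chromosome 7, 126623249 to 126630861, reverse strand) encodes a small chromatin-associated protein induced by stress. Its control libraries read 44.61, 43.85 and 36.49 CPM and its mutant libraries 41.96, 52.77 and 53.27 CPM. Mutants 2 and 3 lay above all controls and mutant 1 below 2 of them. The difference in log2 units was 0.24 (standard error 0.117, 95% interval -0.02 to 0.51, adjusted p = 0.625 in edgeR). Across the 10 regulators, mutant 2 was the highest mutant for 6 and mutant 1 the lowest for 6, whereas control 1 was the lowest control for 5 and the highest for 3.

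The target genes of Atf4 were examined as a list of 40, of which 38 were tested. The list was written with earlier results of these data known, so that its direction is not independent evidence. In the mutants 35 of the 38 had a higher mean, 3 rose past the threshold in edgeR and 0 fell, and an unadjusted p under 0.05 in edgeR was reached by 20 higher and 0 lower genes. Over all tested genes, 49.3% had a higher mean, 0.0535% rose past the threshold in edgeR and 3.71% were higher at an unadjusted p under 0.05. The median log2 fold change was 0.22. The cationic amino acid transporter gene Slc7a3 rose from 1.33 ± 0.513 to 6.34 ± 0.669 CPM (SD, n = 3 each), or by 2.26 in log2 units (standard error 0.263, adjusted p = 0.0237 in edgeR). Aldh1l2, for a mitochondrial enzyme of folate metabolism, rose from 67.69 ± 4.74 to 111.7 ± 10.8 CPM (log2 fold change 0.72, standard error 0.0943, adjusted p = 0.0355 in edgeR). Asns, for asparagine synthetase, rose from 30.28 ± 4.35 to 53.79 ± 6.48 CPM (log2 fold change 0.83, standard error 0.124, adjusted p = 0.0390 in edgeR). These 3 are known Atf4 targets, and each of their libraries in the mutants lay above every control. Without mutant 3 the values were 2.30, 0.70 and 0.88 with adjusted p of 0.0658, 0.108 and 0.108 in edgeR. Asns lost its call without any 1 library (adjusted p 0.0636 to 0.188). Slc7a3 kept its call without control 1 or 3 (0.00672 and 0.0476), and Aldh1l2 without control 3 or mutant 1 (0.0409 and 0.0469), whereas leaving out any other library ended it (0.0658 to 0.0957 for Slc7a3 and 0.0856 to 0.142 for Aldh1l2). DESeq2 called 8 targets higher, these 3 with Psat1, Phgdh, Shmt2, Slc7a5 and Slc6a9, and limma-voom called Slc7a3 and Aldh1l2. Over all genes, DESeq2 called 1.23% and limma-voom 0.113% in either direction.

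The remaining targets named by DESeq2 had edgeR log2 fold changes of 0.59 for Psat1 and 0.47 for Phgdh (serine synthesis), 0.39 for Shmt2 (mitochondrial glycine synthesis), 0.62 for Slc7a5 (a transporter of large neutral amino acids) and 1.08 for Slc6a9 (a glycine transporter). They were not past the threshold in edgeR (adjusted p 0.0709 to 0.192). The cystine transporter gene Slc7a11 was low, at 0.294 to 0.462 CPM in the controls and 0.965 to 1.30 CPM in the mutants (log2 fold change 1.52, standard error 0.340, adjusted p = 0.166 in edgeR). The 3 targets with a lower mean were Cth, Map1lc3b and Sqstm1, at log2 fold changes of -0.17, -0.04 and -0.08. Gdf15 and Fgf21, secreted signals of the response, had too few counts to be tested (0.178 to 0.381 CPM and 0 to 0.207 CPM over the 6 libraries).

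**Figure D4:**
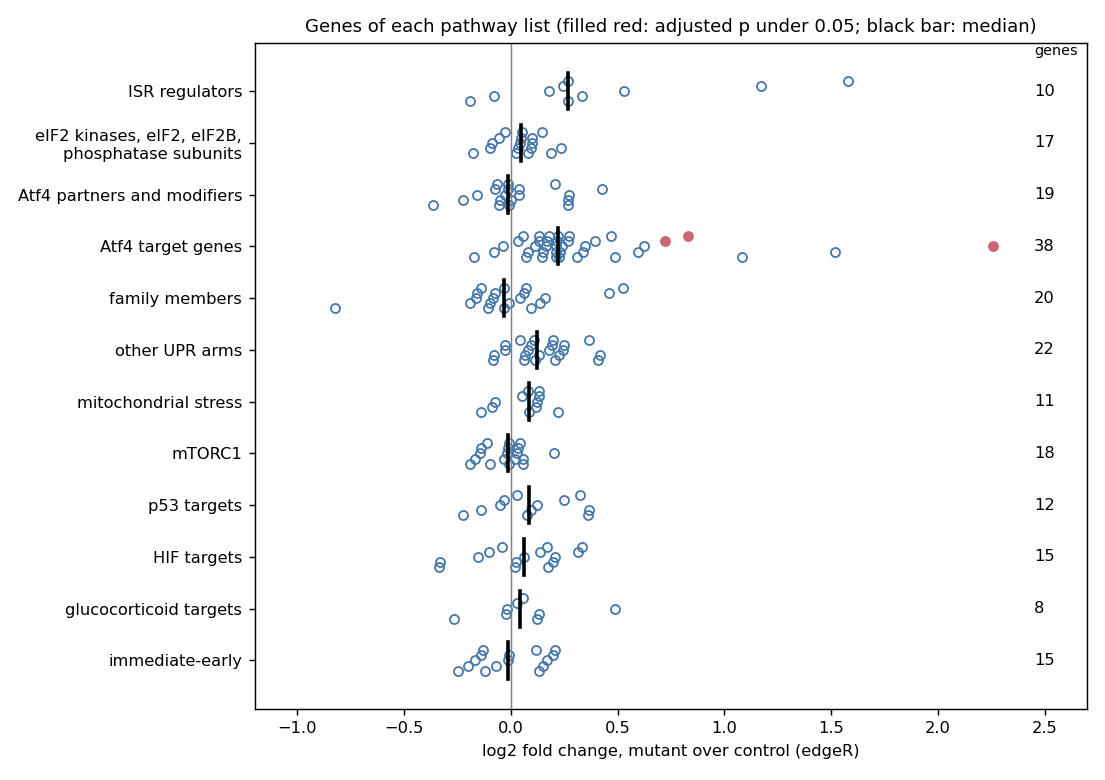
Log2 fold change (horizontal axis, edgeR) of every tested gene of 12 lists, with the median of each list as a black bar, the number of genes at the right and filled points where the adjusted p was under 0.05. The filled points are 3 Atf4 target genes, Slc7a3, Asns and Aldh1l2, and the medians of the regulators and the targets, 0.27 and 0.22, lie to the right of the other lists.

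Family members of the regulators were examined next. Of 20 tested paralogs, 8 had a higher mean, 0 passed in edgeR, DESeq2 or limma-voom, and the median log2 fold change was -0.03. Trib1 and Trib2, the other genes of the Tribbles family, had log2 fold changes of -0.01 (standard error 0.104) and -0.16 (standard error 0.0899), and the difference from Trib3 was not tested. Chac2 was at 2.48 to 2.82 CPM in the controls and 2.69 to 3.37 CPM in the mutants (log2 fold change 0.16, standard error 0.204). Sesn1 and Sesn3 had log2 fold changes of -0.03 and -0.19, Ddit4l of -0.03, and Eif4ebp2 and the scarcely counted Eif4ebp3 of -0.11 and 0.46. Batf, a bZIP factor of immune cells, was the only paralog at an unadjusted p under 0.05, at 2.699 to 2.93 CPM in the controls and 1.31 to 1.87 CPM in the mutants (log2 fold change -0.83, standard error 0.226, adjusted p = 0.298 in edgeR).

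The other arms of the unfolded protein response, run by Atf6 and by Ern1 with Xbp1, had 22 tested genes, of which 18 had a higher mean in the mutants and 0 passed in any of the 3 tests. Their median was 0.12, and 1 gene had an unadjusted p under 0.05 in edgeR, the disulphide isomerase gene Pdia4 (171.6 to 238.0 and 220.3 to 287.4 CPM, log2 fold change 0.42, standard error 0.144). The chaperone gene Dnajb11 came next (80.82 to 94.76 and 90.40 to 110.7 CPM, log2 fold change 0.20, standard error 0.0973). Hspa5, for the chaperone BiP, was at 502.8 to 900.5 CPM in the controls and 713.8 to 1084 CPM in the mutants (log2 fold change 0.41, standard error 0.211), and Xbp1 was at 167.8 to 178.3 and 164.0 to 197.6 CPM (log2 fold change 0.06, standard error 0.0887). The groups overlapped for each of these 4 genes. Of 11 genes of the mitochondrial stress response, 8 had a higher mean, 0 passed in any test and 1 had an unadjusted p under 0.05, the mitochondrial chaperone gene Hspa9 (218.6 to 250.9 and 257.3 to 292.7 CPM, log2 fold change 0.22, standard error 0.0890), and the median was 0.08. Clpp, for a mitochondrial protease, was at 28.44 to 29.23 CPM in the controls and lower in every mutant, at 25.74 to 26.28 CPM (log2 fold change -0.14, standard error 0.0786, adjusted p = 0.682 in edgeR).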

How the data were processed

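Bulk RNA sequencing of 3 control and 3 mutant growth plate samples was analysed, grouped by the sample labels. Per the submitters' processing notes and the methods, reads were trimmed with Trim Galore 0.6.4, mapped to GRCm38 with STAR 2.6.1d and counted on exons with featureCounts 1.6.4 without regard to strand. The values the authors deposited are raw counts per gene and library, and no further column of sample values remained. The age in the text on animal care (2 months) differs from the E18.5 of the age label, which was used.

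edgeR 4.0.16 (R 4.3.3) was run with filterByExpr (minimum count 10, minimum total 15), TMM factors, glmQLFit and glmQLFTest on genotype alone, and Benjamini-Hochberg adjustment over 16813 genes. The study's fit used litter too, which the labels do not give. The common dispersion was 0.0173. Alternatives were DESeq2 1.42.0, limma-voom (limma 3.58.1), other size factors, no low-count filter, at least 10 counts in every library, the replicate number as a block, a Y-linked covariate and each library left out. Replicates differed by more than sampling noise (ratio of chi-square to degrees of freedom 11.6 to 45.1). Levels were also compared by exact permutation tests.

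The members and lists were chosen with earlier results of these data known. Besides the members, the genes named were those past the threshold in each list, otherwise the 2 with the lowest p, paralogs, and the 5 genes closest to Atf4 across libraries. Ppp1r15a, Hspa5, Xbp1, Eif2s3x, Eif2s3y, Mars and the targets not past the threshold were named after their values were seen. Upstream sequences came from RefSeq (GRCm38.p6) and leaders and exon overlaps from GENCODE M21, in which all 10 members were found. Coordinates of the members are those of the deposited files. Plots were made in Python 3.11.15 with matplotlib 3.10.9.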

Additional observations from a re-analysis of the deposited data

How the results depend on the processing

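All 10 regulators kept the direction of their mean difference under every alternative run. The Y-linked covariate set only mutant 3 apart, so that its fit was nearly the same as leaving out that library. Over all genes, 32 passed in edgeR, 194 in DESeq2, 19 in limma-voom, 259 without the low-count filter, 6 with a Y-linked covariate and 3 to 17 with 1 library left out. Of the regulators, 0 passed in edgeR, 2 in DESeq2, 2 without the low-count filter and 0 to 1 with 1 library left out. Trib3 passed in DESeq2 (1.58, adjusted p = 7.34e-06) and without the filter in edgeR (1.57, adjusted p = 4.01e-05), and ranged from 1.37 to 1.89 with 1 library left out. Atf5 passed in DESeq2 (0.53, adjusted p = 0.00535) and without the filter in edgeR (0.53, adjusted p = 0.00244). At an unadjusted p under 0.05 there were 5 regulators in edgeR, 3 in DESeq2 and 3 to 4 with 1 library left out. The causes were not tested.

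The labels do not say whether equal replicate numbers mark paired libraries. Same-numbered libraries had correlations of their deviations from the group means of -0.13, 0.01 and -0.10, and the other pairs -0.06 to 0.16. With only 3 libraries per group, each centred on its group mean, such correlations cannot decide whether the numbers mark pairs. With the replicate number as a block, 3 genes passed in edgeR and 89 in DESeq2. Of the regulators, 0 passed in edgeR and 1 in DESeq2 (Trib3, 1.62, adjusted p = 0.00165), and 3 had an unadjusted p under 0.05 in each. Among all calls, 28.1% were higher in the mutants in edgeR and 66.7% with the block (2 of 3 calls), against 27.3% in DESeq2 and 28.1% with the block there. The edgeR calls of the targets Slc7a3, Aldh1l2 and Asns were lost with the block (adjusted p = 0.0854, 0.136 and 0.193), at log2 fold changes of 2.29, 0.72 and 0.83.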

Other observations

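In the stress programmes that share genes with the integrated stress response, 0 genes passed the threshold in edgeR. Over all tested genes, 8.64% had an unadjusted p under 0.05 in edgeR in either direction, and 3.71% as higher in the mutants. Of 12 targets of p53, which also induces Sesn2, 8 had a higher mean in the mutants and 0 passed in edgeR, DESeq2 or limma-voom, with 2 higher at an unadjusted p under 0.05 in edgeR and a median log2 fold change of 0.08. These were Bax and Bbc3, which promote cell death (31.08 to 35.53 and 39.16 to 45.66 CPM for Bax, 5.50 to 7.08 and 7.72 to 8.69 CPM for Bbc3). Of 15 targets of the hypoxia-inducible factor, which also induces Ddit4, 10 had a higher mean, 0 passed in any of the 3 tests, an unadjusted p under 0.05 in edgeR was reached by 2 higher genes and 1 lower one, and the median was 0.06. Ndrg1 (55.50 to 61.34 and 68.53 to 76.40 CPM) and the glycolytic gene Pgk1 (73.42 to 75.89 and 79.83 to 86.42 CPM) had the lowest p. Of 8 glucocorticoid targets, 5 had a higher mean and 0 passed in edgeR, the median was 0.04, and 1 gene on each side had an unadjusted p under 0.05. Sgk1, for a kinase of ion transport and cell survival, was at 42.49 to 54.70 and 65.06 to 74.42 CPM (log2 fold change 0.49, standard error 0.105, adjusted p = 0.148 in edgeR) and was the only one called by DESeq2, while limma-voom called 0. Tsc22d3 was at 107.2 to 114.0 and 84.60 to 102.1 CPM (log2 fold change -0.26). Of 15 immediate-early genes, which respond to handling of tissue as well as to stimuli, 6 had a higher mean, 0 passed in any test, 0 had an unadjusted p under 0.05 and the median was -0.02. The values nearest to a difference were those of Btg2 (-0.14) and Zfp36 (-0.25).

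Across the 6 libraries, the genes with a pattern most like that of Atf4 were Vta1, Fam104a, Smarcd2, Ppp1r21 and Tma7, among 10017 genes of at least 10 CPM. Their log2 CPM, centred on each gene's mean, differed from that of Atf4 by a root mean square of 0.02 to 0.03. A gene with no variation at all would differ by 0.09, and 18.7% of the genes differed by less than 0.1, so that Atf4 and these genes all varied little. The nearest regulator was Eif4ebp1 (0.15) and the farthest was Chac1 (1.06).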
